A study of Mus musculus with 703 samples.

Results

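The genes of the cytosolic ribosome were followed through RNA sequencing libraries of mouse gastrocnemius, the large muscle of the calf. Members were the rows whose symbol is that of a protein of the large subunit (Rpl, with Rplp0, Rplp1 and Rplp2) or of the small subunit (Rps, with Rpsa), with rows whose symbol ends as a pseudogene's does and the ribosomal S6 kinases left out. This gave 84 of the 19088 genes in the table, 50 of the large and 34 of the small subunit. Since the choice was by symbol, it kept Rps3a2 and Rps4l, which GENCODE M21 annotates as processed pseudogenes without a coding transcript. The animals were F1 crosses between Collaborative Cross lines (CC-RIX mice), and 20 such strains from 19 parental lines were sequenced, 1 library per animal. Males and females ate a diet with 10% or 44% fat, both with added fiber, from 6 weeks of age. In 234 of the animals metformin, a glucose-lowering drug, was given in the drinking water at 5 mg/mL from 7 months of age, and 236 females and 233 males were untreated. The labels name no engineered allele and no pooling, and they give each strain as the cross of its parental lines. Whether all animals of a strain shared 1 genotype was not tested. The study had cohorts of 6 and 12 months and the labels do not give the age of an animal, so metformin and age cannot be told apart.

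Each ribosome joins a small subunit, which reads the messenger RNA, to a large subunit, which forms the peptide bond, and most of their proteins are needed in equal numbers in every cell. Messenger RNAs of ribosomal proteins are short, abundant and regulated together, mostly at translation, through the mTOR pathway. Their spliced messages have been copied back into mammalian genomes many times, so that most ribosomal protein genes have processed pseudogenes whose sequence is nearly that of the parent. A few genes also have a true paralog with its own regulation, of which Rpl3l, the form of Rpl3 made in heart and skeletal muscle, is the best known.

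Total estimated counts ran from 27.4 to 96.1 M per library (median 47.9 M, where M stands for mega), and the 84 members held 0.84% ± 0.121 (SD over all libraries) of them, with means of the 8 groups of sex, diet and treatment between 0.801% and 0.914%. All 11 listed muscle markers, among them Acta1, Ckm and Myh4, were in the table, and their summed level was 94600 to 166000 CPM (counts scaled to library size, on the usual per-megacount basis) in the untreated libraries. By Xist or by their profile, 14 libraries stood on the other side of their sex label and 4 were closest to another strain, 18 in all, and 69 libraries were in the top 5% for liver or B cell transcripts. Counts of calls without these libraries are given for sex, diet and metformin. Rpl39l and Rps3a2 did not pass the filter on low counts in the untreated libraries, which left 82 members and 16384 genes. In the fit on all libraries 83 members and 17740 genes were tested.

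What a row of the table can measure depends on how far its sequence is shared. In the GENCODE M21 annotation, 81 of the 84 members had at least 1 copy at 90% identity or more over at least 50% of the shorter transcript. There were 1249 copies in all outside the members. With members that are copies counted too, 1127 were annotated as processed or unprocessed pseudogenes. The table held a row of its own for 163 of the 1249 copies, and 59 members had at least 1 copy row. A read that matches a member and its copy equally was divided between both rows by the authors' expectation-maximisation step. The coding sequences below are those of GENCODE M21 transcripts (GRCm38), 5′ to 3′, and capitals mark bases at which member and copy differ. Those of Rpl41 (chr10:128548114-128549305, minus strand), a very short basic protein of the large subunit, and of Gm10076 (chr14:105681828-105682211, plus strand, annotated as a long noncoding RNA) were identical over all 75 bases, and they are shown because Rpl41 had the largest strain share of all members.
Rpl41: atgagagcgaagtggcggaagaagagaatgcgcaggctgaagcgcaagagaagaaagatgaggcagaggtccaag
Gm10076: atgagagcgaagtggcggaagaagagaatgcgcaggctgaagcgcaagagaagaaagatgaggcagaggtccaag
Rpl19 (chr11:98026710-98030492, plus strand), a large subunit protein beside the bridge to the small one, differed from the processed pseudogene Rpl19-ps11 (chr8:19492936-19493526, plus strand) at 1 of 588 coding bases, G191A, counted from the first base of the start codon. Coding bases 131 to 250 are shown around it.
Rpl19: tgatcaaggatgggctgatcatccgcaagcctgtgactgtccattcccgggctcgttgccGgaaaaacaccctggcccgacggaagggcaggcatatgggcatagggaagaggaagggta
Rpl19-ps11: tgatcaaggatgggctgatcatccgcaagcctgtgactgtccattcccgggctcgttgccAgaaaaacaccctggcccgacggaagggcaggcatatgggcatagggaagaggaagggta
Rpl23 (chr11:97777527-97782437, minus strand), which binds the large subunit's RNA, differed from the processed pseudogene Gm9794 (chr6:66875321-66875743, minus strand) at 1 of 420 coding bases, C253T. Coding bases 193 to 312 are shown.
Rpl23: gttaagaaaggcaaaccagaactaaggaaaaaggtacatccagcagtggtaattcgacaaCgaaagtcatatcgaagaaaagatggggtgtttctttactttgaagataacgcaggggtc
Gm9794: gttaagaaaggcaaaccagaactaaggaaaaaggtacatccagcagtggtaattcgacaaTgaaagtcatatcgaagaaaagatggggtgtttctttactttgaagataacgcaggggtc
Rpl29 (chr9:106429454-106431568, plus strand), a protein of the large subunit's surface, had several copies, of which Gm10709 (chr9:7751725-7752204, plus strand) differed at 4 of 480 coding bases. Coding bases 145 to 264, with the first of them, G205A, are shown.
Rpl29: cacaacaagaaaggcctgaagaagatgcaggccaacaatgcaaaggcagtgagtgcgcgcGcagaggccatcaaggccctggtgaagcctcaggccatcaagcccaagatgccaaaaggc
Gm10709: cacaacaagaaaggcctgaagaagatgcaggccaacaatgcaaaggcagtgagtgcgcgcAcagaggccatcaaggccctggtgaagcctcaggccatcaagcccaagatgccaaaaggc
Rps12 (chr10:23785211-23787195, minus strand), a small subunit protein, had the same 396 coding bases as Rps12-ps3 (chr19:59322290-59322783, plus strand), which is annotated as protein coding in spite of its name. Their first 120 bases are shown because the division of counts between the rows of this pair varied within strains, and less between them.
Rps12: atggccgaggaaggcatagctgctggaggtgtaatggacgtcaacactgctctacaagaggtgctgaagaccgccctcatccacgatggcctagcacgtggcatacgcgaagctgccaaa
Rps12-ps3: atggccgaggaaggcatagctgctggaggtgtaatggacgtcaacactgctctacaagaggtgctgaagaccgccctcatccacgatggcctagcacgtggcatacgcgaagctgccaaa

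Strain was the factor along which ribosomal protein genes varied most. In untreated animals 82 of 82 members differed between strains at an adjusted p under 0.05 (edgeR's quasi-likelihood test with Benjamini-Hochberg adjustment), where 93.2% of all genes did. The share of a member's variance in log2 CPM that lay between strains had a median of 23.6% (quartiles 11.2% and 66.4%), beside 15.4% over all genes tested. It passed 50% in 25 of 82 members (30.5%) and in 9.25% of all genes. Sex held a median of 0.328% of the variance of a member and diet 0.00429%. In metformin-treated animals the median over the 82 members was 27.4%.

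All 25 members over 50% had a copy in the table. Among the 58 tested members with a copy row the median strain share was 39.8% and 25 passed 50%. Among the 24 without one the median was 13%, the highest was 36.4% (Rps14) and 0 passed 50%. Per the methods, transcripts with few reads were filtered out of the counts. Whether a copy had a row thus depended on reads in these libraries, and members were not divided by sequence alone. When the estimated counts of a member and its copies were added before scaling, the median of the 58 went from 39.8% to 14.5%, 26 of them dropped by more than 20 points, and 2 of the 25 stayed over 50%. In all 38 of the 58 were lower when summed, with a median change of -4.4 points, and others rose, such as Rpl10 (15.6% to 29.1%), Rpl10a (32% to 43.3%) and Rps12 (4.15% to 10.9%). In 18 of the 58 the copies held under 1% of the sum, so that adding them could change little. Adding removes what moves between rows with near-identical sequence, and also any true expression of the copy. Which of these moved in a given strain was not tested.

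**Figure D1:**
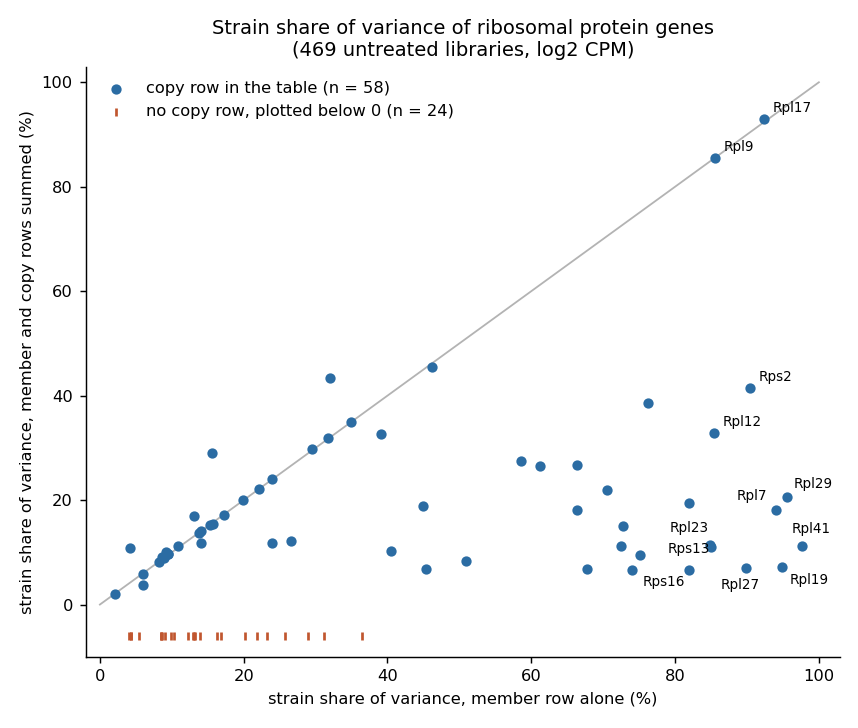
Each point is 1 of the 58 ribosomal protein genes with a copy row, by the percent of its variance that lay between the 20 strains for its own row (x axis) and for the sum of its row and its copies (y axis), and short ticks below 0 are the 24 members without a copy row. Rpl41, Rpl29, Rpl19 and Rpl7 lie at 94.1% to 97.7% alone and at 7.11% to 20.5% summed, while Rpl17 and Rpl9 lie on the line of equal values.

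Rpl41 showed the plainest opposition to its copy row. Its strain mean was 10.8 to 16.6 CPM in 5 strains, the 3 with CC075/UncJ as a parent, (CC024/GeniUncJ x CC002/UncJ)F1 and (CC011/UncJ x CC005/TauUncJ)F1. In the other 15 strains the mean was 86.1 CPM or more. The highest library of the low strains (19.2 CPM) stood under the lowest library of the others (62.6 CPM), so the 2 sets did not overlap. Here, and for Rpl7, Rpl23, Rps13 and Rpl9 below, strains were divided at the widest gap between their means. The sets thus came from the same values, and their separation is a description and no test. Gm10076 ran the other way, with means of 79.3 to 88.6 CPM in the 5 low strains and 0.144 CPM or less in the others. The sum of both rows differed 1.24-fold between the lowest and the highest of the 20 strains, and its strain share was 11.2% against 97.7% for Rpl41 alone.

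Rpl19 fell into 3 levels. In 7 strains it was at 5.39 to 6.35 CPM, in the 5 strains that share the parent CC002/UncJ it was at 52 to 56 CPM, and in the other 8 it was at 98 CPM or more. Its copy Rpl19-ps11 was at 96.2 CPM or more in the first set, 52.1 to 56.6 CPM in the second and 0.492 to 0.71 CPM in the third. The sum differed 1.15-fold from the lowest strain to the highest, and the strain share went from 94.9% to 7.11%. In this pair the middle level was close to an even split of the same total.

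Rpl7, which also reaches the large subunit's RNA, was at 53.3 to 57.1 CPM in the 3 strains with CC011/UncJ as a parent and in (CC042/GeniUncJ x CC040/TauUncJ)F1. It was at 172 to 207 CPM in the other 16, with the highest low library at 75.2 and the lowest of the others at 144 CPM. Its copy Gm12174, which differs at 10 of 810 coding bases, was at 135 to 146 CPM in those 4 strains and at 6.94 CPM or less elsewhere. The sum was 174 to 207 CPM. Rpl23 was at 52.9 to 56.2 CPM in the 3 strains with CC043/GeniUncJ as a parent and at up to 137 CPM in the other 17, and the libraries of the 2 sets did not overlap (at most 69.3 against at least 87.7 CPM). Its copy Gm9794 was at 78.5 to 81.5 CPM in those 3 strains, and the sum was 120 to 140 CPM in all.

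Rpl29 had several copies in the table. Its mean was 0.19 CPM ± 0.127 (SD, n = 24) in (CC002/UncJ x CC043/GeniUncJ)F1, where no library passed 0.479 CPM, against 17.1 to 91.2 CPM in the other 19 strains. In that strain Gm10709 was at 51.7 CPM ± 8.23 and Gm8210 at 35.6 CPM ± 5.57, the highest means of both copies. A further copy, Gm13841, was highest in (CC012/GeniUncJ x CC002/UncJ)F1 at 13.7 CPM ± 4.35. The sum with all copy rows was 73.8 to 95.8 CPM, and the strain share went from 95.5% to 20.5%. Rpl29 therefore read as nearly absent from 1 strain whose summed level lay inside the range of the others.

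**Figure D2:**
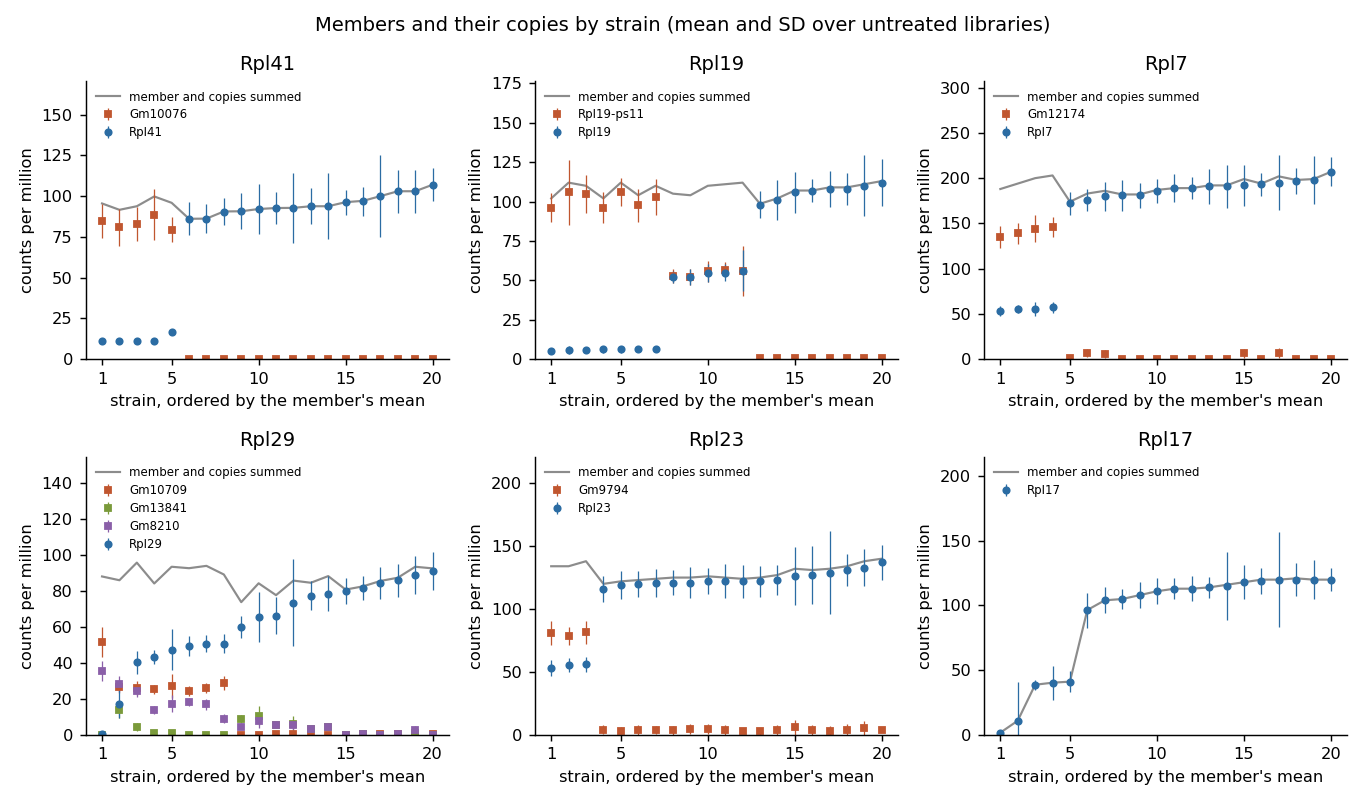
Strain means (circles, with SD over 10 to 26 untreated libraries) of Rpl41, Rpl19, Rpl7, Rpl29, Rpl23 and Rpl17 in CPM are drawn with their named copies (squares) and the sum of member and copies (line), each panel with the 20 strains ordered by the member's mean. In the first 5 panels copies are high where the member is low and the line stays level, while Rpl17 and its sum rise together from about 1 to over 100 CPM.

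The same pattern held for further members of both subunits. Rpl27, a large subunit protein, was high in the 5 strains with CC002/UncJ (27.2 to 30.6 CPM) and at 5.61 CPM or less in the other 15. Its sum with copies, which held 86.4% of it, was 75.6 to 85.7 CPM. Rps13, which sits near the bridge between subunits, had a mean of 20.8 to 29.4 CPM in 4 strains and 58.3 CPM or more in the others, but the 2 sets overlapped, since 1 library of (CC024/GeniUncJ x CC002/UncJ)F1, a high strain, was at 18.6 CPM and 1 of (CC002/UncJ x CC075/UncJ)F1, a low one, was above every strain mean. Its sum was 66.5 to 78.1 CPM. Rps16, at the decoding side of the small subunit, went from a strain share of 82% to 6.7%, and its sum was 49.4 to 60.2 CPM. Rpl39, which lines the exit tunnel, was at 11.1 CPM ± 1.77 only in (CC030/GeniUncJ x CC002/UncJ)F1 and at 30.3 to 35.7 CPM elsewhere. Its copy Rpl39-ps was at 21 CPM ± 2.82 in that strain and at 0.0339 CPM or less in the other 19.

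Rps3a2, an annotated pseudogene among the members and a near copy of Rps3a1, was at 69.2 CPM ± 8.26 (SD, n = 26) in (CC004/TauUncJ x CC019/TauUncJ)F1 and near 0 in the other 19 strains. Rps3a1, which binds initiation factors on the small subunit, was lowest in the same strain, at 126 CPM against 196 CPM or more. Rps2, at the messenger RNA's entry to the small subunit, was at 30.0 CPM ± 29.4 in (CC051/TauUncJ x CC019/TauUncJ)F1 and at 222 to 528 CPM in the others. Rps2-ps13 was highest in that strain, at 300 CPM ± 58.8. The sum of Rps2 with its copies still ran from 342 to 530 CPM and its strain share was 41.5%, against 90.4% alone. For Rpl12, of the stalk base, the copies held 96.3% of the sum. Its own row was at 23.8 and 27.1 CPM in (CC004/TauUncJ x CC019/TauUncJ)F1 and (CC009/UncJ x CC013/GeniUncJ)F1 and at 4.32 CPM or less in the other 18, while the sum differed 1.53-fold between strains.

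Rpl17 and Rpl9 kept their strain share after summing, but their copy rows held only 0.331% and about 0% of the sum. Adding these rows could therefore change little. Rpl17, at the exit tunnel, was at 1.36 CPM ± 0.549 (SD, n = 24) in (CC051/TauUncJ x CC059/TauUncJ)F1. In (CC051/TauUncJ x CC060/UncJ)F1 its median was 1.51 CPM, although the highest library reached 110 CPM. It was at 38.4 to 40.9 CPM in 3 strains that share the parent CC019/TauUncJ, while (CC019/TauUncJ x CC075/UncJ)F1 was among the other 15 strains, at 96.2 to 120 CPM. The sum with its copies ran from 1.65 to 121 CPM, so no copy row of the table made up the difference, and the strain share was 92.3% alone and 92.9% summed. Rpl9, also of the large subunit, was at 3.02 CPM ± 0.829 (SD, n = 10) in (CC009/UncJ x CC013/GeniUncJ)F1 and at 95.9 to 140 CPM in the other 19 strains, with libraries of at most 4.6 against at least 84.5 CPM. Its strain share of 85.5% was the same alone and summed, and was 48.1% in the lower range of sequencing identifiers. Copies without a row in the table were not measured here.

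At the other end, the smallest strain shares belonged to Rplp2, an acidic protein of the stalk, at 2.17%, Rps21, at 4.01%, Rps12, at 4.15%, and Rps26, at the messenger RNA's exit, at 4.35%. Rps12 was low in strain share but varied within strains. Its level within a strain varied by 42.8% (coefficient of variation) when read alone and by 15.3% when its identical copy was added. Over the untreated libraries Rps12 ran from 1.02 to 44.9 CPM (median 16.4) and Rps12-ps3 from 20.7 to 181 CPM (median 50.6), with a sum of 48.5 to 199 CPM (median 66.8). Over both ranges of sequencing identifiers the division of counts between the 2 rows also differed between strains. Strain means of Rps12 ran from 12.6 to 34.2 CPM, and the coefficient of variation of the strain means was 24.1% alone and 5.58% summed. The highest mean was that of (CC009/UncJ x CC013/GeniUncJ)F1, with 10 untreated libraries. In the lower identifier range the strain share of Rps12 was 0.112%, against 4.15% over both ranges.

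**Figure D3:**
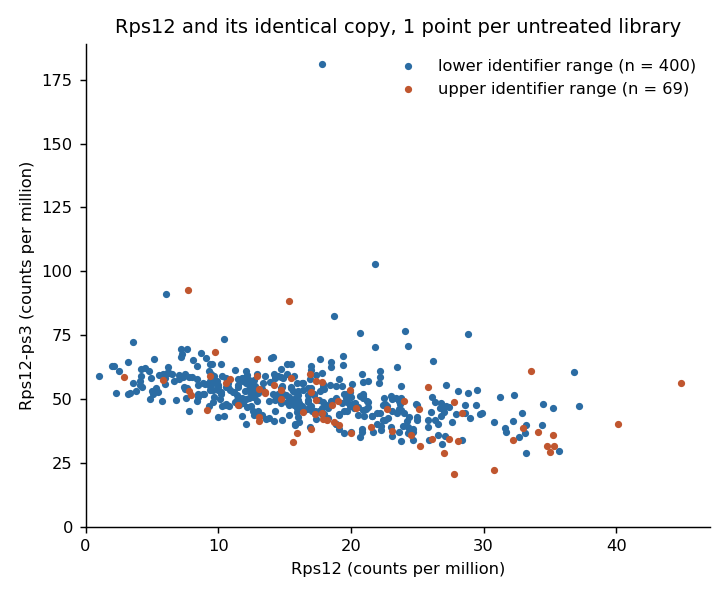
Each point is 1 untreated library (400 in the lower and 69 in the upper identifier range), with Rps12 on the x axis and its identical copy Rps12-ps3 on the y axis, both in CPM, coloured by range of the sequencing identifier. Libraries low in Rps12 mostly lie higher in the copy, which runs from 20.7 to 181 CPM, and libraries of both identifier ranges are mixed along the cloud.

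For 9 of the 58 members the copies held more than 50% of the summed counts: Rpl12, Rpl5, Rpl27, Rps12, Rpl10, Rpl27a, Rpl10a, Rps23 and Rpl21. Rpl5, which carries the small ribosomal RNA of the large subunit into it, read 8.42 CPM alone and its copies 169 CPM. Rpl10, which completes the large subunit's active site, read 83.4 CPM alone and its copies 162 CPM. Read per length of transcript and from each member's own row, without its copies, the highest levels were those of Rps2 (356 CPM per kb), Rplp1 and Rplp0 of the stalk (317 and 291 CPM per kb), Rps15 (278 CPM per kb) and Rpl23a (273 CPM per kb). Rpl3l, at 209 CPM per kb, ranked 13 of the members by this measure. With copies counted the order would differ, since the sum of Rpl10 with its copies, for example, was 245 CPM against 83.4 CPM for its own row.

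Sex moved some ribosomal protein genes in each direction. Of 82 members 39 differed between untreated males and females at an adjusted p under 0.05 in edgeR's quasi-likelihood test (47.6%, where 65.2% of all genes did), 14 higher and 25 lower in males (29.5% and 35.7% of all genes). All log2 differences of members lay between -0.18 and 0.22, with a median of -0.014 beside -0.018 over all genes. Scaling to the total count alone moved the median of all genes to -0.082 and gave 67 members, 5 higher and 62 lower. In that fit 2525 of all genes were higher and 8864 lower in males, so directions of small differences depend on the scaling. Without the 18 libraries against their labels 47 members were called, 11 higher and 36 lower (4721 and 6187 of all genes). Without those high in liver or B cell transcripts 34 were, 14 higher and 20 lower (4835 and 5723 of all genes). In bulk muscle, fewer cells of a type and less RNA per cell cannot be told apart.

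Rpl22l1, the paralog of the RNA-binding protein Rpl22, had the largest rise in males. It ran from 13.8 to 37.2 CPM (median 23.9) in females and from 17.6 to 62.4 CPM (median 27.8) in males, so the groups overlapped. Its log2 difference was 0.22 (SE 0.0204, adjusted p = 6.7e-23) and it was higher in males in 20 of 20 strains. Rpl22 itself rose by 0.10 (SE 0.0134, adjusted p = 8.6e-13, higher in 18 of 20 strains). Rpl3 fell, from a median of 35 CPM in females (19.1 to 87.5) to 31.7 CPM in males (21.1 to 96), with a log2 difference of -0.18 (SE 0.0268, adjusted p = 6.6e-10, lower in 18 of 20 strains). Rpl3l rose, from a median of 277 CPM (181 to 362) to 291 CPM (218 to 501), with a log2 difference of 0.10 (SE 0.0136, adjusted p = 5.8e-12, higher in 18 of 20 strains). The pair Rpl3 and Rpl3l thus differed in opposite directions between the sexes, and libraries of both sexes overlapped for each gene.

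Further members higher in males were Rps20, near the head of the small subunit (log2 difference 0.14, 18 of 20 strains), Rps14, at its platform (0.12, 17 of 20 strains), and Rplp1, of the stalk (0.10, 17 of 20 strains). Under total count scaling Rplp1 was at 0.04 with an adjusted p of 0.13 (edgeR). Members lower in males were Rpl12 (-0.16, lower in 20 of 20 strains), Rpl17 (-0.16, 14 of 20), Rps21 (-0.10, 16 of 20), Rpl7 and Rpl23 (both -0.10, 19 of 20). With copies summed into their members, and limma voom in place of edgeR, the difference of Rpl12 was -0.08 (adjusted p = 9.9e-07, limma voom). That of Rpl17 was then -0.06 (adjusted p = 0.02, limma voom), while those of Rpl7 and Rpl23 were -0.09 and -0.10. Both the rows and the tool differ from the values above, so these changes cannot be put down to summing alone. For Rpl17 the copies held only 0.331% of the sum. Rps6, the substrate of the S6 kinases, was lower in males, with a log2 difference of -0.09 (SE 0.0151, adjusted p = 6.4e-08). Rpl17 was not called without libraries high in liver or B cell transcripts (log2 difference -0.09, adjusted p = 0.1, edgeR).

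Rps27 and its paralog Rps27l both differed by 0.06 in males (adjusted p = 0.0041 and 0.0033, edgeR), and under total count scaling both were at or just under 0 and were not called. Of the X-linked members, Rpl10 (-0.06), Rpl36a (-0.05) and Rps4x (-0.03) were lower in males and Rpl39 was not called (log2 difference -0.00, adjusted p = 0.9). Rps4x was not called without libraries high in liver or B cell transcripts (-0.02, adjusted p = 0.15, edgeR). Markers of other cells moved with sex. The 4 B cell markers in the table, of 6 listed, summed to a median of 73.5 CPM in males (11.6 to 362) and 19.8 CPM in females (2.57 to 443). Of these, 2 were tested and went in opposite directions, Ighm higher in males (log2 difference 1.61) and Jchain lower (-1.26). The 6 adipocyte markers summed to 69.8 CPM in males (8.06 to 493) and 110 CPM in females (11.7 to 489). All 6 were called, 5 lower and 1 higher in males. Their part in the sex differences was not tested.

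**Figure D4:**
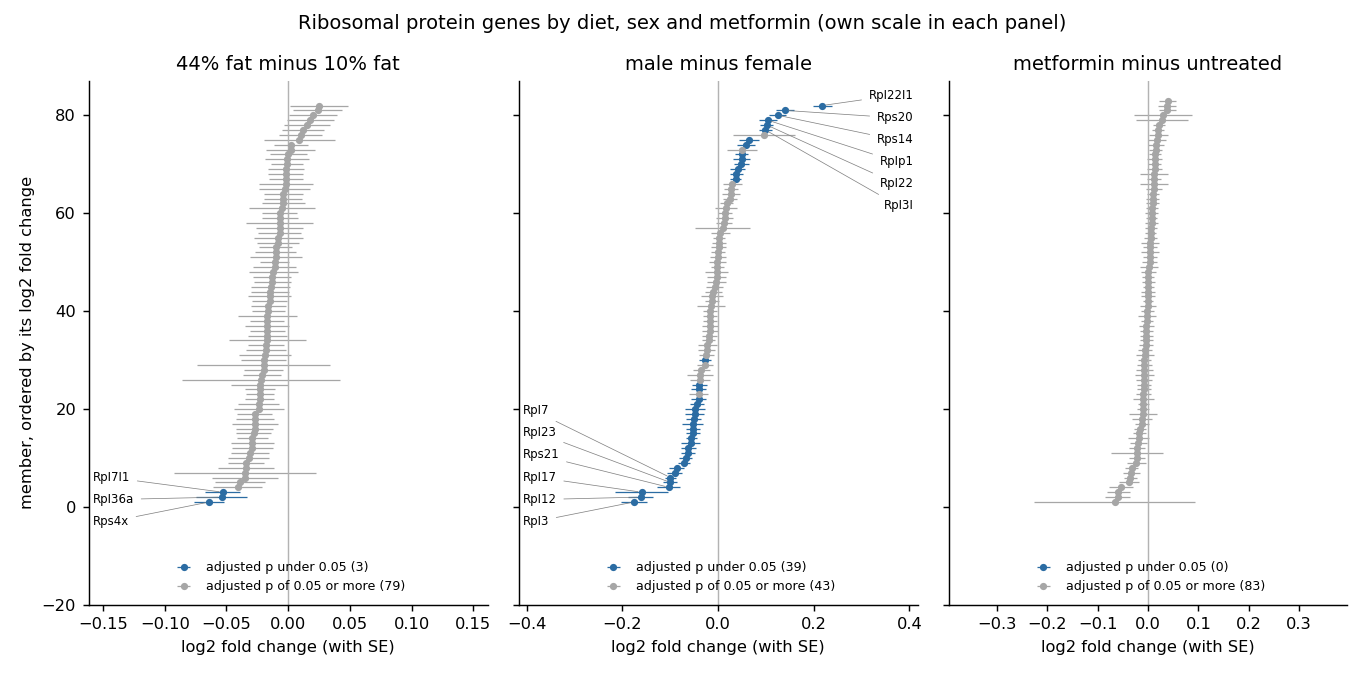
Log2 fold changes with SE of the ribosomal protein genes tested are ordered from lowest to highest in each panel, for 44% against 10% fat, males against females and metformin against untreated, with called members in blue and the most extreme called ones named. The x scales differ: the sex panel reaches from -0.18 to 0.22 and has 39 called members, the diet panel has 3 and the metformin panel 0.

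Diet had small effects, all in 1 direction among the members called. At 44% fat 3 of 82 members were lower than at 10% fat and 0 were higher (edgeR's quasi-likelihood test), where 18.4% of all genes were called 9.55% higher and 8.82% lower. The share of members called, 3.66%, was under that background. Rps4x, the X-linked core protein of the small subunit, ran from 121 to 235 CPM (median 158) at 10% fat and up to 224 CPM (median 152) at 44% fat, so the groups overlapped. Its log2 difference was -0.06 (SE 0.012, adjusted p = 4.9e-06) and it was lower in 17 of 20 strains. Rpl7l1, the paralog of Rpl7, differed by -0.05 (SE 0.0143, adjusted p = 0.0026, lower in 14 of 20 strains), with medians of 20.3 and 19.5 CPM. Rpl36a, an X-linked large subunit protein, differed by -0.05 (SE 0.0203, adjusted p = 0.045, lower in 14 of 20 strains), with medians of 22.4 and 21.3 CPM. Over the 82 members 71 log2 differences were negative, with a median of -0.015 beside -0.002 over all genes. Without the 18 libraries against their labels 11 members were lower, where 1497 of all genes were higher and 1658 lower. Without those high in liver or B cell transcripts 7 were, where 1448 of all genes were higher and 1398 lower. At an unadjusted p under 0.05, 10 members differed. Markers of other cells moved with diet. All 6 adipocyte markers were called (4 higher and 2 lower at 44% fat, median log2 difference 0.23), as were 3 of 6 fibroblast markers, all lower, and 3 of 6 endothelial markers, all higher. Of the B cell markers 2 were tested, 1 higher and 1 lower, and their sum had a median of 40.4 CPM at 44% fat and 53.9 CPM at 10% fat. Their part in the diet differences was not tested.

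Metformin left the members near their untreated levels. None of 83 members passed an adjusted p of 0.05 in edgeR's quasi-likelihood test (0 called, where 16.2% of all genes were, 7.01% higher and 9.21% lower, and 8 members at an unadjusted p under 0.05), and log2 differences lay between -0.07 and 0.04. The lowest adjusted p was that of Rpl3 (log2 difference -0.06, adjusted p = 0.061), with a median of 32.9 CPM in treated and 33.3 CPM in untreated libraries. DESeq2 and limma voom also called 0. Without libraries against their labels 1 member was called, where 1304 of all genes were higher and 1525 lower. Without those high in liver or B cell transcripts 1 was (1007 and 1248 of all genes). The authors' variance-stabilised values gave 2 (1444 and 1348), the lower identifier range gave 5 (1469 and 1912) and total count scaling gave 6 (472 and 2846). Rpl3 was called in the lower identifier range (-0.08, adjusted p = 0.03, edgeR).

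Whether these effects differed between groups was tested by interaction terms. For diet by sex 0 of 82 members were called (0.226% of all genes), and 0 had an unadjusted p under 0.05. For metformin by diet 0 of 83 were called (0.00564% of all genes), again with 0 at an unadjusted p under 0.05, in edgeR, and limma voom called 0 in both. For metformin by sex 1 member was called (1.87% of all genes, 0.564% higher and 1.3% lower), Rpl7l1, whose metformin difference was lower in males than in females (log2 term -0.08, SE 0.0241, adjusted p = 0.048, edgeR). Its mean was 19.9 CPM ± 2.42 in untreated and 20.1 CPM ± 2.04 in treated females, and 20.2 CPM ± 2.53 in untreated and 19.4 CPM ± 2.5 in treated males (SD). All 4 groups overlapped, and limma voom did not call it. Over the 83 members 79 of these interaction terms were negative, with a median of -0.036 beside -0.002 over all genes.

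For diet by strain 1 of 82 members was called (3.27% of all genes), Rpl23a, an exit tunnel protein that receives nascent chains (adjusted p = 0.0002, edgeR). In (CC002/UncJ x CC075/UncJ)F1 its 12 libraries at 44% fat had a mean of 175 CPM ± 16.1 (SD), and 9 of the 12 at 10% fat lay at 129 CPM or less, under every library at 44% fat. For metformin by strain 2 of 83 were called (8.89% of all genes), Rpl29 (adjusted p = 1.1e-12) and Rps3a2 (adjusted p = 0.013), and limma voom called 0. Rpl29 was at 0.718 CPM in treated and 0.191 CPM in untreated (CC002/UncJ x CC043/GeniUncJ)F1, but 1 treated library stood at 6.51 CPM, and the mean of the other 11 was 0.191 CPM. Rps3a2 was at 69.7 CPM ± 8.99 in treated and 69.2 CPM ± 8.26 in untreated (CC004/TauUncJ x CC019/TauUncJ)F1, and near 0 elsewhere. Without its highest library the treated mean of Rpl29 was that of the untreated animals, and Rps3a2 differed between treatments by less than its SD in the strain that had it.

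Of the paralogs, Rpl3l outweighed its parent in muscle, and the others were the smaller part of their pair. Set per length of transcript, Rpl3l held a median of 89.4% of the sum of Rpl3l and Rpl3 over the untreated libraries (69% to 94.5%). Medians of the strains lay between 87.5% and 90.7%, while the SD within a strain was 0.965 to 6.09 points. The median was 90.1% in males and 88.6% in females, and 89.4% and 89.3% at 44% and 10% fat. Rpl3 itself read 26.2 CPM per kb. In GENCODE M21 it had 25 copies at 90% identity or more, of which 0 had a row, while Rpl3l had 0 copies. Reads that Rpl3 may share with copies without a row were not measured, so its part of the pair may be understated. Rpl22l1 held 25.5% of its pair with Rpl22 (16.4% to 35.3%), 26.2% in males and 24.7% in females, with medians of the strains from 22.7% to 28.8%. Rps27l held 22.1% of its pair with Rps27 (15% to 30.4%), and medians of the strains ran from 20.8% to 26.3%. Rpl7l1 held 8.95%, but its pair includes Rpl7, whose own row changed with strain. Rpl39l, known from germ cells, held 0.102% of its pair with Rpl39. Rps4l, also an annotated pseudogene, held 0.382% of its pair with Rps4x.

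**Figure D5:**
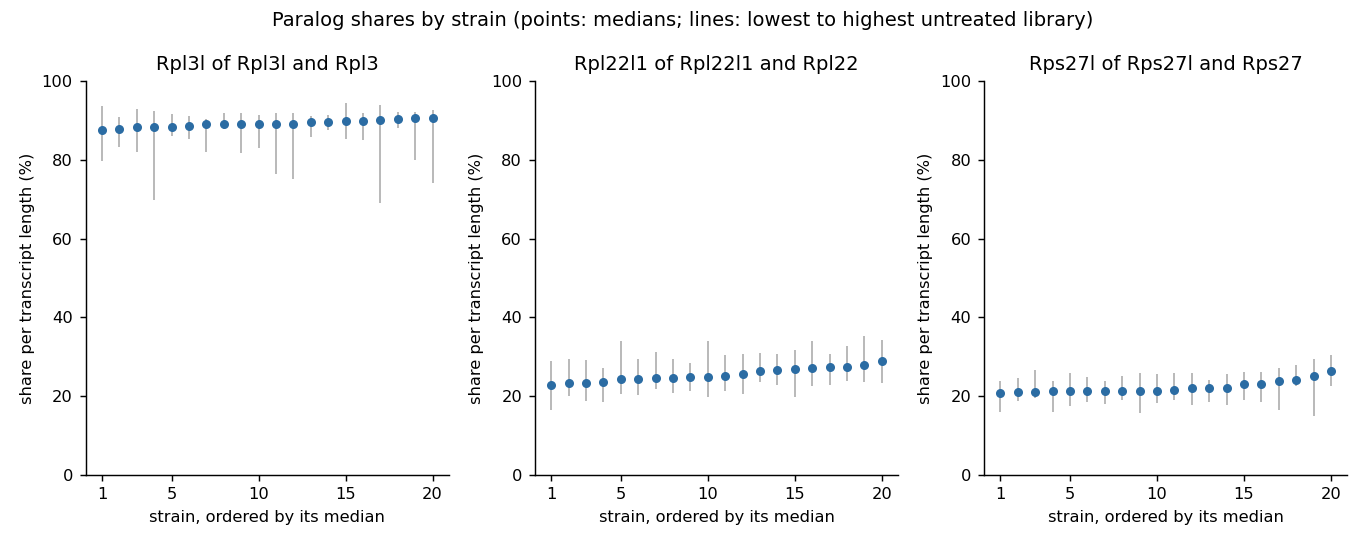
The share of Rpl3l, Rpl22l1 and Rps27l in the per-length sum with their parent gene is plotted in percent for the 20 strains, each panel ordered by the strain's median (point), with a line from the lowest to the highest untreated library. Medians for Rpl3l lie between 87.5% and 90.7%, and single libraries drop to 69%.

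Across the untreated libraries, after strain, sex, diet and identifier range were removed, Rpl3 and Rpl3l had a Pearson r of -0.142 (two-sided permutation p = 0.0026) and a Spearman rho of -0.0194 (permutation p = 0.67), the only relation of this kind computed. Without the 2 libraries farthest from the median of Rpl3, r was -0.122 (permutation p = 0.0086). Within the lower identifier range r was -0.224 (n = 400) and within the upper range it was 0.346 (n = 69), so the relation did not hold within both ranges.

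Members were also counted by their place in the ribosome, to be read against 65.2% of all genes called for sex (29.5% higher and 35.7% lower in males) and 18.4% for diet. For sex, 3 of 4 stalk and stalk base proteins were called (1 higher and 2 lower in males), as were 3 of 8 proteins of the exit tunnel (1 higher, 2 lower), 3 of 6 at the messenger RNA's path through the small subunit (0 higher, 3 lower), 0 of 2 that bind the small ribosomal RNA of the large subunit (Rpl5 and Rpl11), and 6 of 18 genes of Diamond-Blackfan anaemia (2 higher, 4 lower), an inherited failure of red cell formation. Among 5 paralogs tested 3 were higher in males and 0 lower (median log2 difference 0.06), while of their 7 parents 2 were higher and 4 lower (median -0.03). The median over all genes was -0.02, and no test was made between these lists. For diet, 2 of 4 X-linked members were lower and 0 of the 18 anaemia genes were called.

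Other genes of translation were read for comparison, beside 65.2% of all genes called for sex, 18.4% for diet and 16.2% for metformin. Of 7 elongation factors 5 were higher and 1 lower in males, with Eef2 (translocation) at 0.16 and Eef1b2 (nucleotide exchange) at -0.17. Of 21 initiation factors 11 were higher and 6 lower in males, and 4 were higher and 1 lower at 44% fat. Of 28 genes of ribosome biogenesis 7 were higher and 10 lower in males, with Fbl, the methyltransferase of ribosomal RNA, at -0.21, and 3 were higher and 2 lower at 44% fat. Of 11 genes of RNA polymerase I, which makes the large ribosomal RNAs, 2 were higher and 3 lower in males, with Polr1b at -0.20, and 1 was higher and 3 lower at 44% fat. Of 7 other messages with the same kind of start as ribosomal protein messages, 2 were higher and 2 lower in males. Of 7 proteins bound to ribosomes but outside the rule 2 were higher and 2 lower in males. Among 15 regulators of ribosomal protein synthesis 3 changed with diet, with Mtor itself 0.06 higher at 44% fat (adjusted p = 3.2e-05, edgeR). For metformin 4 of the 15 regulators, 2 of the 7 other messages of that kind, 2 of the 7 bound proteins, 4 of the 21 initiation factors, 3 of the 28 biogenesis genes, 0 of the 7 elongation factors and 0 of the 11 polymerase I genes were called.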

How the data were processed

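Bulk polyadenylated RNA of gastrocnemius was sequenced by the authors as read pairs of 100 bp. Both mates were aligned as single reads to a transcriptome of the founder strains and quantified with EMASE in GBRS, per the methods. The values the authors deposited are estimated counts per gene, given as whole numbers. Such counts divide shared reads by a model, so a member's row can lose or gain reads to a copy. A second deposited table holds the authors' variance-stabilised values on a log2 scale (DESeq2) and was used as an alternative. Deposited gene positions were read as GRCm38, per the labels, and 60 of 84 members had the same start and end in GENCODE M21.

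Genes were filtered with filterByExpr over the 8 groups of sex, diet and treatment and tested with edgeR 4.0.16 (TMM scaling, quasi-likelihood F test, Benjamini-Hochberg adjustment over all genes tested, called under 0.05). Strain, diet and sex were fitted on the untreated libraries (strain, sex, diet and range of the sequencing identifier), metformin and its interactions on all libraries. The identifier range (400 untreated libraries in the lower and 69 in the upper) stood for batch. Variance shares were omega squared on log2 CPM with a prior count of 2. Copies were found with blastn 2.17.0 on the same strand. Correlations used 1e+05 permutations. CPM values are TMM scaled. R 4.3.3, limma 3.58.1 and DESeq2 1.42.0 gave the alternatives: other scalings and tools, no filter, each identifier range, each diet, other identities for copies, and libraries left out. The edgeR fit for diet was tested on simulated counts without strain, sex or range effects, and the other fits were not. Replicates were separate animals. The labels give no age, which was in no fit. The members, the lists and the tests were chosen with earlier results of these data known. Named for strain were the 12 members with the highest and the 4 with the lowest strain share, and for the other factors up to 6 called members in each direction, the pairs Rpl3/Rpl3l, Rpl22/Rpl22l1, Rpl39/Rpl39l and Rps27/Rps27l and the X-linked Rpl10, Rpl36a and Rps4x. Other members named were chosen after their values were seen.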

Additional observations from a re-analysis of the deposited data

Results flagged for a closer look

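Rpl23a stood out because its diet difference depended on strain (adjusted p = 0.0002, edgeR's quasi-likelihood test), the 1 member called for diet by strain. In the 120 untreated libraries of the 5 strains with CC002/UncJ as a parent its values fell on 2 sides, a division made after the values were seen. In 41 libraries it was at 88.3 to 129 CPM with a median of 9.61 CPM for its copy Gm10335, and in 79 it was at 147 to 233 CPM with a median of 0.0886 CPM for the copy. The sums with Gm10335 alone, 1 of the 5 copy rows of Rpl23a, were 92.4 to 147 CPM and 147 to 234 CPM. The other copy rows were not read by side. With all 5 added, the strain share of Rpl23a over the 20 strains was 15%, against 72.7% for its own row. In (CC002/UncJ x CC075/UncJ)F1 the low side held 9 of 12 libraries at 10% fat and 0 of 12 at 44% fat, while in (CC012/GeniUncJ x CC002/UncJ)F1 it held 0 of 24. In the other 3 strains each diet had libraries on both sides.

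Rpl7l1 stood out because its metformin difference depended on sex (adjusted p = 0.048, edgeR), the 1 member called there. For metformin by strain 2 members were called. Rpl29 (adjusted p = 1.1e-12, edgeR) was called on a strain where 1 library at 6.51 CPM stood over 11 with a mean of 0.191 CPM. Rps3a2 (adjusted p = 0.013, edgeR) was at 69.2 CPM in 1 strain and near 0 in the others.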

How the results depend on the processing

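Of 487 alternative values for the named members, 459 kept their direction and their side of the threshold. Rps27 and Rps27l reversed for sex under total count scaling (-0.00 and -0.01 on the log2 scale). In the upper identifier range, with 69 untreated libraries, 45 members were called for strain, 0 for diet, 5 for sex and, with limma voom, 0 for diet by strain, and Rpl3 and Rpl3l reversed to an r of 0.346. With total count scaling 67 members were called for sex and 6 for metformin. Without libraries against their labels 11 were called for diet and 1 for metformin, and without libraries high in liver or B cell transcripts 7 and 1. The variance-stabilised values gave 5 for diet (1484 of all genes higher and 1663 lower) and 2 for metformin. For metformin the lower identifier range gave 5. Copies summed into members (limma voom, added after the data were seen) gave 1 for metformin, where 1349 of all genes were higher and 1399 lower. For metformin by sex and metformin by strain limma voom gave 0 in all libraries, in each identifier range and, as an alternative added later, without libraries against their labels. The cause was not tested.

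Rows alone cannot say where a shared read came from, and copies without a row were not counted. Counting precision limited the rows near 0, such as Rpl29 in 1 strain. No paired analysis was possible because every library carries the same replicate number and groups hold different animals.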
